A study of Mus musculus with 64 samples.

Results

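The 10 genes described here mark the inhibitory interneurons of the mouse hippocampus: Gad1, Gad2, Sst, Pvalb, Vip, Npy, Cck, Calb2, Reln and Lamp5. They were chosen by name as common interneuron markers, and their rows were read from a table of 32227 genes. Their identifiers in the table are ENSMUSG00000070880 (Gad1), ENSMUSG00000026787 (Gad2), ENSMUSG00000004366 (Sst), ENSMUSG00000005716 (Pvalb), ENSMUSG00000019772 (Vip), ENSMUSG00000029819 (Npy), ENSMUSG00000032532 (Cck), ENSMUSG00000003657 (Calb2), ENSMUSG00000042453 (Reln) and ENSMUSG00000027270 (Lamp5). In the mouse genome, Gad1, Gad2 and Lamp5 lie on chromosome 2, Reln on 5, Npy on 6, Calb2 on 8, Cck on 9, Vip on 10, Pvalb on 15 and Sst on 16. All 10 passed the filter on low counts that left 17382 genes for testing, with at least 204 reads in every library (Vip, the lowest). Bulk RNA of the hippocampus was sequenced from 8 inbred strains, with 4 female and 4 male libraries of each. Of these, 3 are wild-derived (PWK/PhJ, CAST/EiJ and WSB/EiJ). Among the 5 laboratory strains, C57BL/6J gave the reference genome, NOD/ShiLtJ develops autoimmune diabetes and NZO/HlLtJ becomes obese, and A/J and 129S1/SvImJ complete the set. The labels name no treatment or engineered allele, and the sources used here give no age and no pooling. Nothing in the labels ties a library to its own animal, so p-values measure the spread between these 64 samples.

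Hippocampal interneurons are a small minority of neurons that release GABA and control when and where pyramidal and granule neurons fire. They fall into classes that are told apart by the peptides and calcium-binding proteins they make, and each class contacts its own part of the target neuron. Parvalbumin basket cells act at the cell body, somatostatin cells at distal dendrites, and vasoactive intestinal peptide cells mostly on other interneurons. Several of the genes are not exclusive to interneurons: pyramidal neurons transcribe Cck and Lamp5, mossy cells and immature granule neurons transcribe Calb2, and Cajal-Retzius cells transcribe Reln and Calb2. In bulk RNA, fewer cells of a type and less RNA per cell cannot be told apart.

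The promoters of the neuropeptide genes Sst, Npy and Vip are shown because Npy and Vip had the widest spans among strains, because Sst and Npy tracked each other across libraries, and because the Sst promoter carries the textbook cAMP response element, a site bound by CREB proteins. RefSeq promoter windows on GRCm38.p6 were found for 9 of the 10 genes. Each line gives the 250 bases before the annotated start, 5′ to 3′ on the gene's strand, with matches to TGACGTCA (the cAMP response element) or TATAAA (a core promoter box) in capitals. Sst lies at chr16:23890845-23891094 on the minus strand, Npy at chr6:49822460-49822709 on the plus strand and Vip at chr10:5638968-5639217 on the plus strand.
Sst: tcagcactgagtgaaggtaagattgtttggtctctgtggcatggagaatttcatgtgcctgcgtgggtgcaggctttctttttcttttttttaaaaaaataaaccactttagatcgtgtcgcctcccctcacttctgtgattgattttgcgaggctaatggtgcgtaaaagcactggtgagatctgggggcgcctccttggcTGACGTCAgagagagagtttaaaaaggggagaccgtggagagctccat
Npy: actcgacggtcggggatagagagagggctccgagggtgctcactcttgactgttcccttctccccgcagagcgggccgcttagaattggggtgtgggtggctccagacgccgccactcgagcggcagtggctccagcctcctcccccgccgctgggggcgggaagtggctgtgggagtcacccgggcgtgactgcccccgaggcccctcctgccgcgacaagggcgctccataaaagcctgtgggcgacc
Vip: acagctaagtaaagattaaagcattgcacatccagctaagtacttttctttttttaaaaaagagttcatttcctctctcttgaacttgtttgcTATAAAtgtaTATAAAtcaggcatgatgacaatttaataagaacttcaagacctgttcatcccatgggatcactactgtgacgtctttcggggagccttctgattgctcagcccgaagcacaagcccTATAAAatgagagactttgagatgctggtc
On both strands, TGACGTCA was present in the Sst window, 48 bases before the start, and in no other of the 11 windows of the 9 genes. It was present in 1.55% of all 32851 promoter windows of the same length. TATAAA was present 3 times in the Vip window, at 157, 147 and 30 bases before the start, and once in the Gad1 window on the opposite strand. That motif was present in 12.4% of all windows. TGACG, which is part of TGACGTCA, was present in the Sst, Vip, Gad2 and Cck windows and in 17.8% of all. These letters are those of the reference strain, and they were not compared between strains.

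Total counts ran from 16607602 to 27759221 per library with a median of 22176356.5. Levels are CPM, counts scaled to library size, with TMM factors between 0.969 and 1.03. The labelled tissue was checked against its markers: the summed level of 9 markers of CA1 pyramidal neurons ran from 956.8 to 1687 CPM and that of 9 markers of dentate granule neurons from 352 to 652 CPM, with no marker at 0 in all libraries. Markers of neighbouring tissue varied more. The sum of 10 choroid plexus markers ran from 21.5 to 4945 CPM, that of 11 thalamus and habenula markers from 106 to 215 CPM, and that of 9 hypothalamus markers from 1.26 to 15.4 CPM except in A/J female 3, where it was 63.4 CPM.

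A group of 4 libraries stood apart from the others in the way levels depended on transcript length, and they bear on these genes because Npy, Sst, Cck and Pvalb have short transcripts. Each library's log2 levels, relative to the mean of all libraries, were regressed on log2 transcript length over 10398 genes. The slope was -0.318 in A/J male 2, -0.306 in 129S1/SvImJ female 1, -0.274 in WSB/EiJ female 1 and -0.183 in C57BL/6J male 4, whereas the other 60 libraries lay between -0.0903 and 0.0831. In all 4 of them, Sst, Pvalb, Npy and Cck were above every other library of their strain, and Gad2 and Reln were below every other. For Cck, A/J male 2 held 418 CPM against 242 ± 20.8 (SD, n = 7) in the other A/J libraries. For Reln, 129S1/SvImJ female 1 held 39.1 CPM against 57.3 ± 5.96 (SD, n = 7). The longest annotated transcript measures 566 bases for Npy, 721 for Sst, 799 for Cck and 977 for Pvalb, 1431 for Calb2, 1955 for Lamp5 and 2532 for Vip, and 5744 for Gad2 and 11699 for Reln. The cause of the low slopes was not tested, and values without these libraries are given where a result rests on them.

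**Figure D1:**
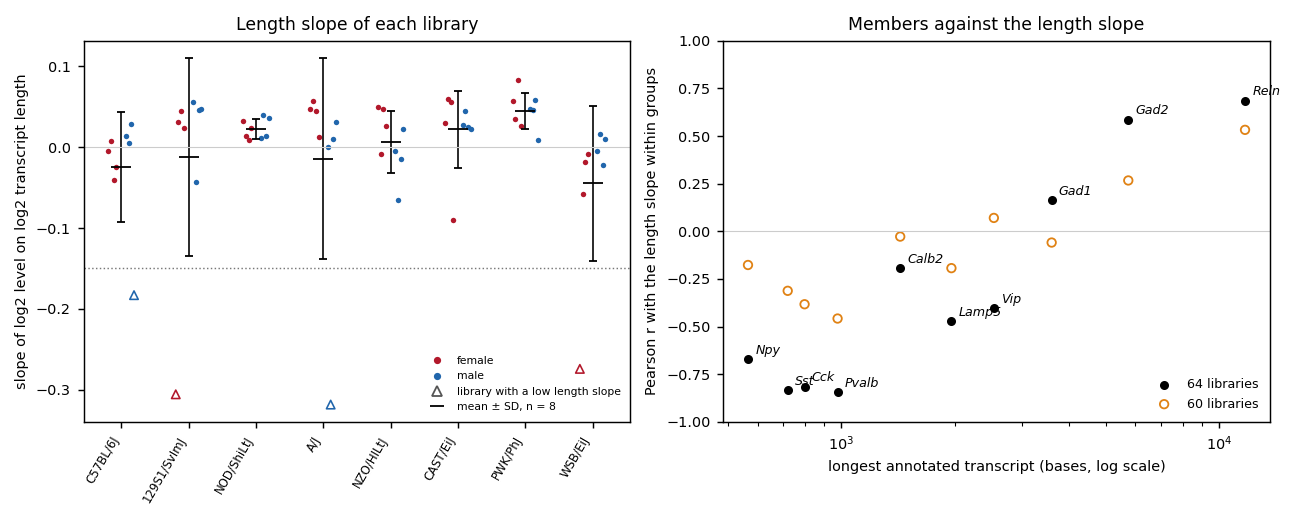
The left panel plots the slope of log2 level on log2 transcript length in each of the 64 libraries by strain (points, females and males; bars, mean ± SD, n = 8), with the 4 lowest libraries as triangles below a dotted line at -0.15. The right panel plots, for each gene, Pearson's r of its residual log2 level with that slope against the length of its longest transcript on a log scale, over 64 libraries (filled) and over 60 (open). Pvalb lies lowest and Reln highest in both sets.

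Within strain-by-sex groups, the residual level of Pvalb correlated with this slope at r = -0.84, Sst at -0.83, Cck at -0.81 and Npy at -0.67 over the 64 libraries, while Reln was at 0.68 and Gad2 at 0.59. Over the other 60 libraries the values were -0.46, -0.31, -0.38 and -0.18, and 0.53 and 0.27. These are descriptions over libraries that share their groups, and no p is given.

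Per kilobase of annotated exon length, Sst was highest at 186 ± 45.7 CPM per kb (SD, n = 64), followed by Cck at 165 ± 37.6 and Npy at 54.3 ± 14.9. Gad1 was at 44.4 ± 4.06, Gad2 at 30.0 ± 5.21, Pvalb at 25.2 ± 3.90 and Calb2 at 20.9 ± 4.83 CPM per kb. Lamp5 at 10.4 ± 2.23, Vip at 5.27 ± 1.45 and Reln at 2.12 ± 0.363 CPM per kb were lowest. By this length, Sst, Cck and Npy headed the order, although Gad1 had the highest CPM, and Vip, also a peptide gene, was ninth. The length is the union of all annotated exons, 7639 bases for Gad1 and 1305 for Cck, whose longest transcripts measure 3601 and 799 bases. Sst (721) and Npy (566) have the same length by both measures. The order therefore depends on the length used, and by longest transcript Gad1 and Cck would stand higher against Sst and Npy.

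All 10 genes differed among the 8 strains by edgeR's quasi-likelihood F test, with Benjamini-Hochberg adjusted p between 6.33e-16 (Lamp5) and 0.0146 (Calb2). The share of all genes tested that passed was 89.2%, so passing sets these genes apart from few others. The size of the differences was modest. Strain means spanned at least 1 on the log2 scale for Npy alone (1.01), against 27.6% of all genes that passed with such a span. The span was 0.97 for Vip, 0.81 for Cck, 0.80 for Lamp5, 0.76 for Sst, 0.52 for Reln, 0.49 for Calb2 and Gad2, 0.41 for Pvalb and 0.33 for Gad1, and its median was 0.64 over the 10 and 0.55 over all genes tested. Strain accounted for 76.6% of the variance of log2 level in Lamp5, 74.7% in Npy and 72.5% in Vip, and for 26.9% in Calb2, with a median of 51.1% over all genes tested. Without the 4 libraries the span of Npy was 0.97 and that of Vip 1.03.

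**Figure D2:**
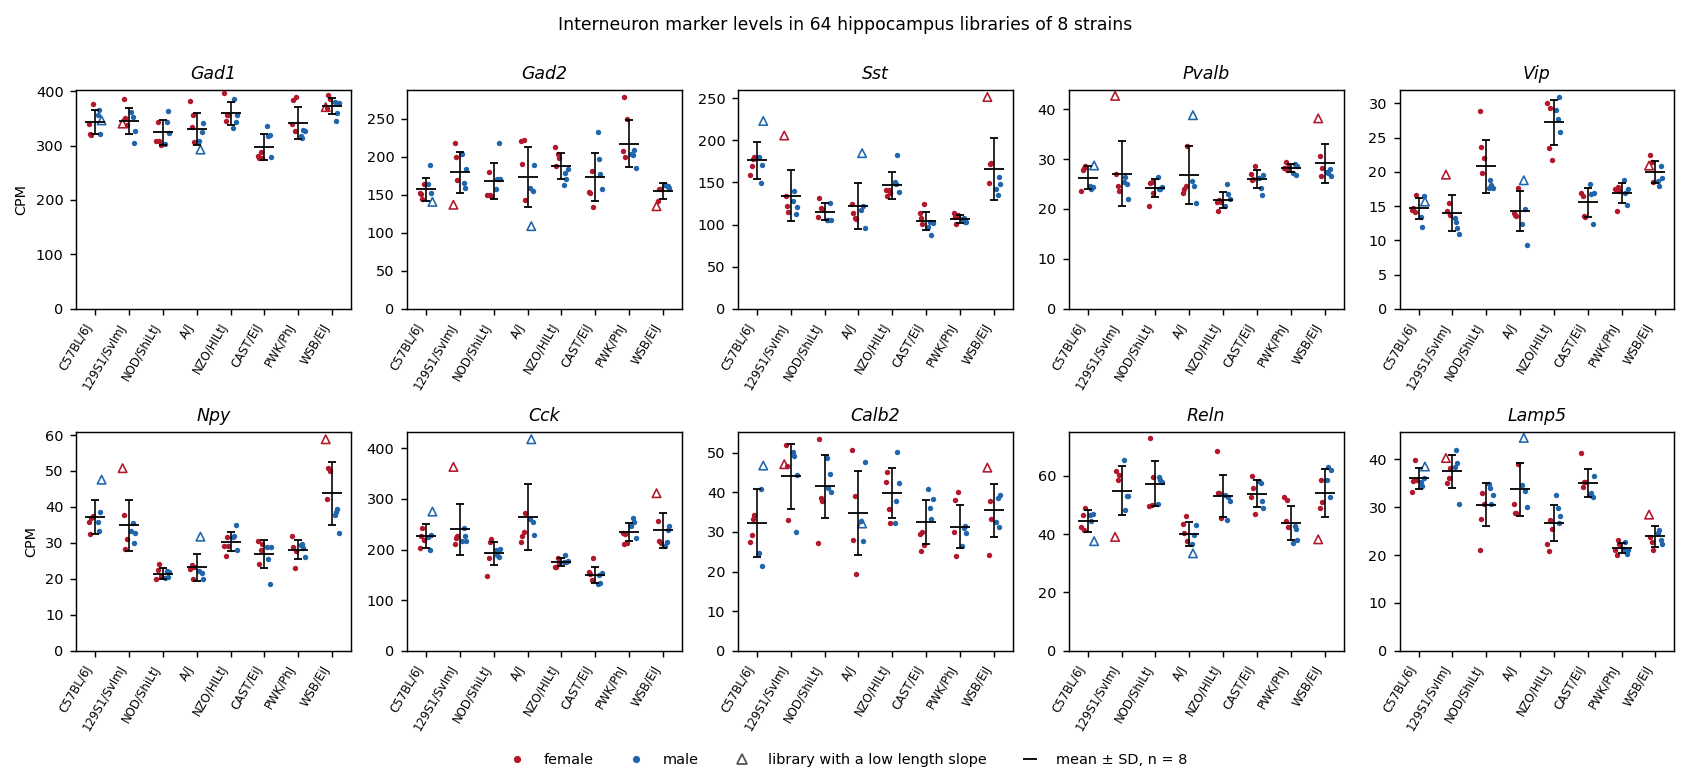
CPM of each of the 10 genes in each of the 64 libraries, by strain, with females and males as points, the 4 libraries with a low length slope as triangles and the mean ± SD of 8 libraries as bars. Vip stands highest in NZO/HlLtJ, Npy in WSB/EiJ and Sst in C57BL/6J, Lamp5 is lowest in PWK/PhJ and WSB/EiJ, and the triangles are the highest libraries of their own strain in the Sst, Pvalb, Npy and Cck panels.

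Against the mean of the other 7 strains, a difference was called at an adjusted p under 0.05 and an absolute log2 fold change of at least 0.5, a fold of 1.41. Of the 80 combinations of gene and strain, 5 were called, against 12.9% of all such combinations among the genes tested. They were Vip in NZO/HlLtJ, Npy in WSB/EiJ and in NOD/ShiLtJ, Cck in CAST/EiJ and Lamp5 in PWK/PhJ. With no fold minimum 46 of 80 passed, against 42.3%, and with a minimum of 1 none did, against 5.27%. In none of the 5 did all 8 libraries lie outside all 56 others, an arrangement held by 0.265% of genes for higher levels in NZO/HlLtJ, 0.408% for higher in WSB/EiJ, 0.173% for lower in NOD/ShiLtJ, 1.62% for lower in CAST/EiJ and 1.65% for lower in PWK/PhJ.

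Gad1 and Gad2 encode the enzymes that make GABA from glutamate, and they are shared by nearly all interneurons. Gad1 had the narrowest span of the set: the lowest, median and highest libraries were 346, 375 and 392 CPM in WSB/EiJ, the highest strain, and 276, 285 and 336 CPM in CAST/EiJ, the lowest, with no overlap between the 2 strains. Here and for the genes below, strains compared for overlap were picked at or near the ends of a gene's order. The share of all genes without overlap between such strains was not computed, so non-overlap does not set these genes apart. Means ran in the order WSB/EiJ (372 ± 14.9 CPM, SD, n = 8), NZO/HlLtJ, 129S1/SvImJ, C57BL/6J, PWK/PhJ, A/J, NOD/ShiLtJ (324 ± 22.9) and CAST/EiJ (297 ± 23.7). Of the neighbours in this order, NOD/ShiLtJ and CAST/EiJ alone differed (log2 0.13 ± 0.05 SE, edgeR adjusted p 0.0178). Neighbours are adjacent in a gene's own order and so lie close by construction, and no share over all genes was computed for them. Of all 28 pairs of strains, 13 were called for Gad1, against 40.8% of all pairs over all genes.

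For Gad2, PWK/PhJ held 186, 206 and 279 CPM as lowest, median and highest, and WSB/EiJ, the lowest strain, 135, 158 and 162 CPM, again with no overlap. The order was PWK/PhJ (217 ± 31.0 CPM, SD, n = 8), NZO/HlLtJ (187 ± 17.2), 129S1/SvImJ, A/J, CAST/EiJ, NOD/ShiLtJ, C57BL/6J and WSB/EiJ (155 ± 10.4), and PWK/PhJ was separated from NZO/HlLtJ (edgeR adjusted p 0.0437; 0.0195 without the 4 libraries, and 0.0725 with the length slope as a covariate). The WSB/EiJ mean was 157 ± 7.14 CPM (n = 7) without its library with a low length slope. Against the other 7 strains, PWK/PhJ was at log2 0.35 ± 0.07 (SE), under the minimum of 0.5. With the thalamus and habenula marker level as a covariate that value was 0.56 and was called. Slc32a1, the vesicular GABA transporter that completes the pan-GABAergic trio, did not pass the F test (adjusted p 0.185), with means from 75.6 ± 7.93 CPM in C57BL/6J to 89.7 ± 10.1 CPM in NZO/HlLtJ.

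The 2 GAD genes ran in different orders, so their ratio within a library was compared between strains, a comparison chosen after these orders were seen. Gad1 divided by Gad2 was 2.42 ± 0.197 (SD, n = 8) in WSB/EiJ, with libraries from 2.14 to 2.75, and 1.58 ± 0.108 in PWK/PhJ, with libraries from 1.38 to 1.76. C57BL/6J lay at 2.19 ± 0.154, A/J at 1.97 ± 0.345, 129S1/SvImJ at 1.95 ± 0.254, NOD/ShiLtJ at 1.95 ± 0.132, NZO/HlLtJ at 1.93 ± 0.143 and CAST/EiJ at 1.74 ± 0.191. A comparison of all 28 pairs by two-sided exact permutation tests on the log2 ratio, adjusted over the 28, left 15 pairs past 0.05. The share for ratios of other pairs of genes was not computed, so this count does not set the 2 GAD genes apart. WSB/EiJ and PWK/PhJ did not overlap, and their exact p of 0.000155, adjusted to 0.000967, is the smallest that 8 against 8 allows. The ratio in WSB/EiJ exceeded that of each of the other 7 strains at this threshold. Without the 4 libraries, in which Gad2 was low, 18 pairs passed, and WSB/EiJ stood at 2.37 ± 0.156 (n = 7) against 1.58 ± 0.108 in PWK/PhJ.

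The length slope moved with this ratio across strains. Its strain mean was lowest in WSB/EiJ (-0.0447) and highest in PWK/PhJ (0.0451), the strains with the highest and lowest ratio, and C57BL/6J, next to WSB/EiJ in the ratio, was also next in the slope (-0.0245). Without the 4 libraries, WSB/EiJ (-0.0120) and PWK/PhJ (0.0451) were still the lowest and the highest. In the edgeR model, Gad2 in WSB/EiJ against PWK/PhJ was at log2 -0.49 (edgeR adjusted p 1.12e-05) and Gad1 at 0.13 (0.0173). With the slope as a covariate the values were -0.36 (0.000207) and 0.15 (0.00712), and the difference between the genes was 0.50 in place of 0.62 on the log2 scale. Its part in the ratio beyond this fit was not tested.

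**Figure D3:**
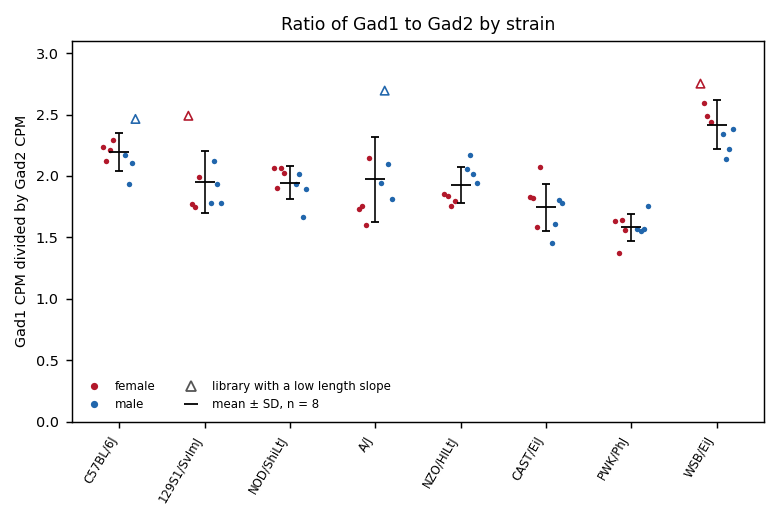
Ratio of Gad1 CPM to Gad2 CPM in each library by strain (points, females and males; triangles, the 4 libraries with a low length slope; bars, mean ± SD, n = 8). WSB/EiJ libraries lie from 2.14 to 2.75, all above the PWK/PhJ libraries at 1.38 to 1.76.

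Sst encodes somatostatin, a peptide of interneurons that act on distal dendrites. C57BL/6J libraries held 150, 174 and 223 CPM as lowest, median and highest, and WSB/EiJ libraries 135, 153 and 251 CPM. CAST/EiJ held 88.0, 102 and 124 CPM and PWK/PhJ 101, 107 and 114 CPM, so that every library of C57BL/6J and WSB/EiJ lay above every library of CAST/EiJ and PWK/PhJ. The order was C57BL/6J (176 ± 21.7 CPM, SD, n = 8), WSB/EiJ (166 ± 36.9), NZO/HlLtJ (147 ± 15.7), 129S1/SvImJ (134 ± 30.3), A/J (122 ± 27.1), NOD/ShiLtJ (115 ± 10.2), PWK/PhJ (107 ± 4.58) and CAST/EiJ (104 ± 10.9). No neighbours in it were separated by the test, although 18 of 28 pairs were, against 40.8% of all pairs over all genes. NZO/HlLtJ and 129S1/SvImJ were separated without the 4 libraries (edgeR adjusted p 0.000921). C57BL/6J was at log2 0.48 ± 0.07 (SE) against the other 7 strains, just under the minimum of 0.5. It was called at 0.57 when libraries were scaled to the mean level of Gad1, Gad2 and Slc32a1. Leaving out the 4 libraries brought WSB/EiJ to 154 ± 14.2 CPM and 129S1/SvImJ to 124 ± 10.02 CPM (n = 7 each) and the span of the strain means to 0.69.

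Npy encodes neuropeptide Y, made by neurogliaform and ivy cells and by part of the somatostatin cells. WSB/EiJ libraries held 32.6, 40.8 and 58.8 CPM as lowest, median and highest, against a mean of 28.9 ± 6.64 CPM (SD, n = 56) in the other strains. Npy in WSB/EiJ was higher by log2 0.61 ± 0.06 (SE), 1.53-fold (edgeR adjusted p 1.62e-11), with all 8 libraries above the median of the others, and 6.39% of genes were called higher in this strain. Without the 4 libraries, of which WSB/EiJ female 1 held the 58.8 CPM, the value was 0.60 and the WSB/EiJ mean 41.6 ± 6.60 CPM (SD, n = 7). NOD/ShiLtJ libraries held 19.99, 21.2 and 24.1 CPM against 32.04 ± 8.20 CPM in the others, a narrow set in which every library lay below the median of the others. There Npy fell by 0.55 ± 0.07 (SE) on the log2 scale (edgeR adjusted p 1.11e-08), and 3.08% of genes were called lower. That difference was under the minimum of 0.5 with the thalamus and habenula covariate (-0.48), with the length slope as covariate (-0.499) and when scaled to Gad1, Gad2 and Slc32a1 (-0.49), and stayed past it without the 4 libraries (-0.51).

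C57BL/6J (37.2 ± 4.67 CPM) and 129S1/SvImJ (34.9 ± 7.08) followed WSB/EiJ in Npy, and A/J (23.2 ± 3.76) lay next to NOD/ShiLtJ (SD, n = 8). Of the neighbours, WSB/EiJ and C57BL/6J alone differed (edgeR adjusted p 0.0460). Without the 4 libraries that value was 0.00701, and CAST/EiJ and A/J were separated as well (edgeR adjusted p 0.000469). Strain means of log2 Npy and Sst correlated at r = 0.78 over the 8 strains, and at 0.75 without the 4 libraries, a description over points that share libraries.

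Vip encodes vasoactive intestinal peptide, the marker of interneurons that mainly inhibit other interneurons, and it held the largest of the 80 differences of a strain from the mean of the other 7. NZO/HlLtJ libraries held 21.7, 28.4 and 30.9 CPM as lowest, median and highest, and the other 56 libraries lay between 9.38 and 28.9 CPM with a mean of 16.6 ± 3.49 (SD). In NZO/HlLtJ, Vip was higher by log2 0.73 ± 0.07 (SE), 1.66-fold (edgeR adjusted p 4.48e-14). All 8 libraries were above the median of the others, and 8.04% of genes were called higher in NZO/HlLtJ. The value was 0.76 without the 4 libraries, 0.86 with the thalamus and habenula covariate and 0.60 when scaled to the GABA genes.

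NOD/ShiLtJ (20.8 ± 3.89 CPM) and WSB/EiJ (19.99 ± 1.63) came next in Vip, then PWK/PhJ (16.9 ± 1.48), CAST/EiJ (15.6 ± 2.11), C57BL/6J (14.7 ± 1.58), A/J (14.3 ± 2.92) and 129S1/SvImJ (14.0 ± 2.68; SD, n = 8 each). NZO/HlLtJ differed from NOD/ShiLtJ (edgeR adjusted p 0.000417) and WSB/EiJ from PWK/PhJ (0.0249, and 0.150 with the length slope as a covariate), and the other neighbours were not separated. Within groups, the level of Vip correlated with markers of subiculum and neocortex other than Lamp5 at r = 0.53 and with 9 of CA1 pyramidal neurons at 0.61, and with choroid plexus markers at -0.47 (0.59, 0.58 and -0.49 without the 4 libraries). The summed subiculum and neocortex markers, here with Lamp5 included, had a median of 328 CPM in NZO/HlLtJ (282 to 406), and ran from 222 to 411 CPM over all libraries. The summed CA1 markers had a median of 1010.03 CPM in NZO/HlLtJ against 1263 CPM over all libraries, and the thalamus and habenula markers 181 against 143 CPM. Markers of meningeal fibroblasts were higher in NZO/HlLtJ for 7 of 8 genes, with a summed median of 311 against 179 CPM (187 to 418 CPM in NZO/HlLtJ), and summed astrocyte markers had a median of 5929 against 4878 CPM, with 0 of 8 genes called. High astrocyte sums were not particular to NZO/HlLtJ: they ran from 5668 to 6101 CPM in PWK/PhJ and from 4778 to 6343 CPM in CAST/EiJ. The part of these cells and tissues in the Vip difference was not tested.

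Cck encodes cholecystokinin, made by a class of basket cells and also by pyramidal neurons. CAST/EiJ libraries held 132, 150 and 184 CPM as lowest, median and highest, against 225 ± 44.9 CPM (SD, n = 56) in the other strains, and no CAST/EiJ library reached the median of the others. Cck in CAST/EiJ fell by 0.57 ± 0.07 (SE) on the log2 scale (edgeR adjusted p 2.56e-09), where 10.8% of genes were called lower. Scaled to the GABA genes the value was -0.499, under the minimum, and without the CAST/EiJ females, whose sample titles carry a separate block of numbers, it was -0.64. The summed CA1 markers had a median of 1432 CPM in CAST/EiJ against 1263 CPM over all libraries. Wfs1 alone, at 476 ± 103 CPM there (SD, n = 8), carried that excess, since the other 8 markers summed to 1013.5 against 1019.4 CPM. The summed pan-neuronal markers had a median of 7004 against 7446 CPM, and the summed excitatory neuron markers 7783 against 7803 CPM. The part of pyramidal neurons in the low Cck was not tested.

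The order of Cck was A/J (264 ± 65.3 CPM, SD, n = 8), 129S1/SvImJ (241 ± 50.5), WSB/EiJ (238 ± 34.4), PWK/PhJ (234 ± 18.3), C57BL/6J (227 ± 23.8), NOD/ShiLtJ (193 ± 22.4), NZO/HlLtJ (175 ± 8.01) and CAST/EiJ. C57BL/6J differed from NOD/ShiLtJ (edgeR adjusted p 0.0448) and NZO/HlLtJ from CAST/EiJ (0.0376). With the length slope as a covariate PWK/PhJ lay above WSB/EiJ (by log2 0.17) in place of below it. Without A/J male 2, the A/J mean was 242 ± 20.8 CPM (n = 7) and still the highest.

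Lamp5 encodes a membrane protein of the LAMP family that marks neurogliaform cells and is also found in pyramidal neurons. PWK/PhJ libraries held 20.1, 21.2 and 23.2 CPM as lowest, median and highest, against 31.9 ± 5.91 CPM (SD, n = 56) in the others. WSB/EiJ was close, at 21.1, 23.4 and 28.5 CPM, and the lowest libraries of NOD/ShiLtJ (21.0 CPM) and NZO/HlLtJ (20.9 CPM) reached the same levels. Lamp5 in PWK/PhJ fell by 0.55 ± 0.06 (SE) on the log2 scale (edgeR adjusted p 1.05e-11), where 11.9% of genes were called lower. WSB/EiJ was at -0.37 ± 0.06 (SE), under the minimum. The order ran from 129S1/SvImJ (37.5 ± 3.50 CPM, SD, n = 8), C57BL/6J (36.1 ± 2.17), CAST/EiJ (35.1 ± 2.99) and A/J (33.7 ± 5.59) to NOD/ShiLtJ (30.5 ± 4.49), NZO/HlLtJ (26.7 ± 3.81), WSB/EiJ (23.9 ± 2.25) and PWK/PhJ (21.5 ± 1.13), and the step from NOD/ShiLtJ to NZO/HlLtJ alone passed (edgeR adjusted p 0.0435). The step from NZO/HlLtJ to WSB/EiJ passed as well without the 4 libraries (edgeR adjusted p 0.0269). Whether reads of each strain were aligned to its own genome or to the reference alone is not given in the sources used here. In the latter case reads of distant strains may not align, and the part of such a loss in the low Cck and Lamp5 levels of wild-derived strains was not tested.

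**Figure D4:**
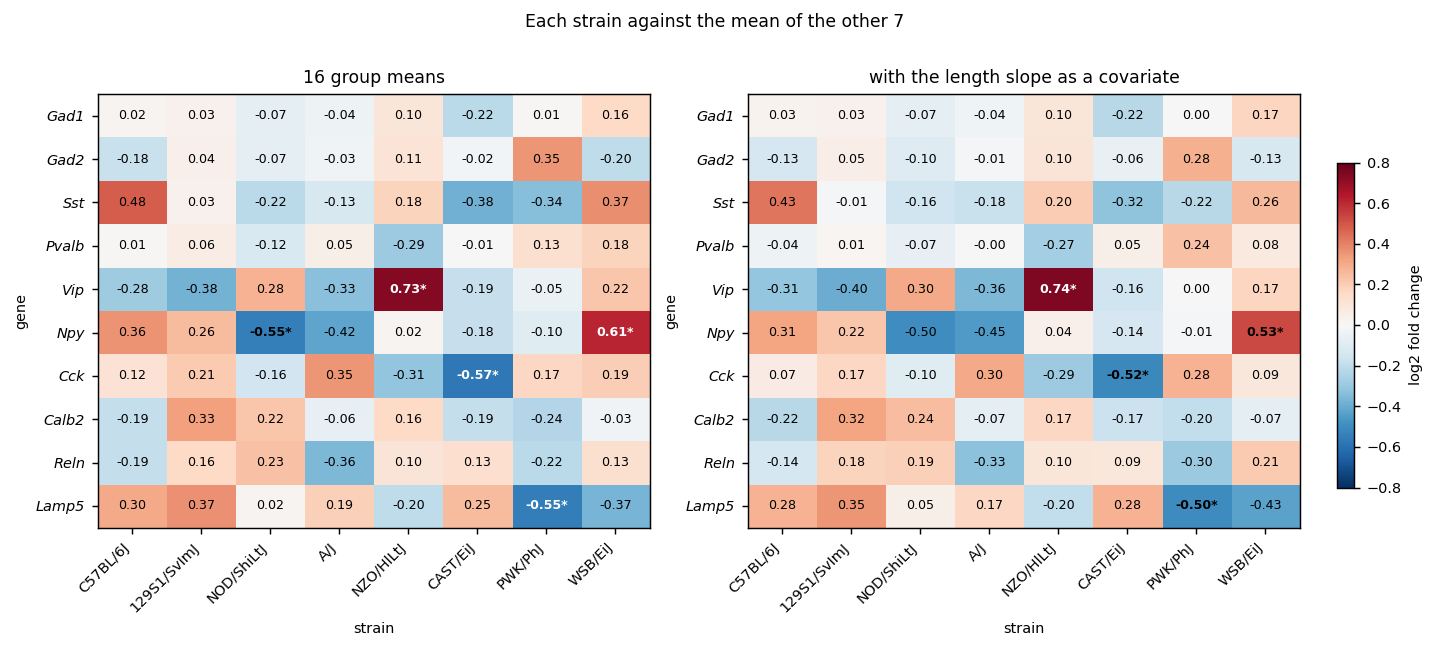
Log2 fold change of each gene (rows) in each strain (columns) against the mean of the other 7, from the model of 16 group means (left) and with the length slope as a covariate (right), colour from blue (lower) to red (higher) and asterisks for called differences. Vip in NZO/HlLtJ (0.73 and 0.74) and Npy in WSB/EiJ (0.61 and 0.53) are the most positive of the called differences in both panels, and Npy in NOD/ShiLtJ loses its asterisk on the right.

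Pvalb encodes parvalbumin, the calcium buffer of fast-spiking basket and axo-axonic cells, and it varied little. PWK/PhJ libraries held 26.9, 28.3 and 29.4 CPM as lowest, median and highest and NZO/HlLtJ libraries 19.6, 21.7 and 24.9 CPM, without overlap. Means ran from 29.1 ± 3.88 CPM (SD, n = 8) in WSB/EiJ, 28.2 ± 0.847 in PWK/PhJ, 27.1 ± 6.48 in 129S1/SvImJ, 26.8 ± 5.89 in A/J, 26.3 ± 2.27 in C57BL/6J and 26.0 ± 1.78 in CAST/EiJ to 24.2 ± 1.73 in NOD/ShiLtJ and 21.8 ± 1.58 in NZO/HlLtJ, with no separated neighbours. PWK/PhJ was separated from 129S1/SvImJ (edgeR adjusted p 0.00564) and NOD/ShiLtJ from NZO/HlLtJ (0.0238) without the 4 libraries. Its F test lost the threshold with the thalamus and habenula covariate (edgeR adjusted p 0.0667). The highest library of 129S1/SvImJ, A/J and WSB/EiJ was in each case one of the 4 with a low length slope, at 42.7, 38.8 and 38.2 CPM, and without them the means were 24.9 ± 1.66, 25.1 ± 3.63 and 27.8 ± 1.41 CPM (n = 7 each). PWK/PhJ then had the highest mean. With the length slope as a covariate WSB/EiJ lay below PWK/PhJ (log2 -0.14, edgeR adjusted p 0.0166) in place of above it.

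Calb2 encodes calretinin, a calcium-binding protein of interneurons that contact other interneurons. Its strains overlapped broadly: 129S1/SvImJ, the highest, held 30.0, 46.9 and 52.0 CPM as lowest, median and highest and PWK/PhJ, the lowest, 23.9, 30.4 and 40.1 CPM. Means ran from 44.1 ± 8.18 CPM (SD, n = 8) in 129S1/SvImJ through NOD/ShiLtJ (41.5 ± 7.86), NZO/HlLtJ (39.8 ± 6.34), WSB/EiJ (35.4 ± 6.59), A/J (34.7 ± 10.6), CAST/EiJ (32.5 ± 5.61) and C57BL/6J (32.2 ± 8.48) to PWK/PhJ (31.3 ± 5.45). No neighbours were separated by the test, and 5 of 28 pairs were, against 40.8% of all pairs over all genes. Within groups, Calb2 correlated at r = 0.61 with 7 of the 8 markers of immature granule neurons (the eighth being Calb2), at 0.59 with 8 markers of Cajal-Retzius cells, at 0.49 with thalamus and habenula markers and at -0.57 with excitatory neuron markers. The positive correlations were not particular to Calb2. With the immature granule, Cajal-Retzius, and thalamus and habenula markers, Gad2 was at 0.79, 0.80 and 0.60 and Gad1 at 0.59, 0.65 and 0.48. The lists are not free of interneuron genes. The Cajal-Retzius list holds Cacna2d2, which is among the genes nearest to Gad2 by residual correlation. Ndnf in that list and Tac2 in the thalamus and habenula list are also listed as interneuron subtype markers. The part of these cells and tissues in the spread of Calb2 was not tested.

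Reln encodes reelin, a secreted glycoprotein of interneurons and Cajal-Retzius cells that guides neuronal layering and tunes synapses in the adult. NOD/ShiLtJ libraries held 49.6, 58.3 and 73.1 CPM as lowest, median and highest, above every A/J library (33.4, 40.1 and 46.3 CPM). A first group of strains comprised NOD/ShiLtJ (57.4 ± 7.81 CPM, SD, n = 8), 129S1/SvImJ (55 ± 8.48), WSB/EiJ (54.2 ± 8.24), CAST/EiJ (54.0 ± 4.75) and NZO/HlLtJ (53.2 ± 7.31), which were not separated as neighbours. A step to C57BL/6J (44.4 ± 3.73) passed (edgeR adjusted p 0.0195), and PWK/PhJ (43.9 ± 5.72) and A/J (40.2 ± 4.16) followed. The step to C57BL/6J had an adjusted p of 0.0226 by edgeR without the 4 libraries, and the means of 129S1/SvImJ and WSB/EiJ were 57.3 ± 5.96 and 56.5 ± 5.55 CPM (n = 7 each). A/J was at log2 -0.36 ± 0.07 (SE) against the other 7 strains, under the minimum.

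No difference between females and males was called in any of the 10 genes by edgeR's quasi-likelihood test adjusted over all genes, against 0.167% of genes called. Vip had the lowest unadjusted edgeR p of the 10 (p = 0.0397), with 18.5 ± 4.80 CPM in females and 17.4 ± 5.11 CPM in males (SD, n = 32 each) and an adjusted p of 0.917. The interaction of strain and sex was called for none of the 10, against 0.046% of genes. Gad2 had the lowest interaction p of the 10 (unadjusted edgeR p 0.00955, adjusted p 0.374), followed by Gad1, Npy and Vip, and none passed after adjustment. DESeq2 likewise called none of the 10 for sex or for the interaction. In WSB/EiJ, Npy was 50.4 ± 6.78 CPM in females and 37.1 ± 3.05 CPM in males (SD, n = 4 each). Its adjusted p of 0.375 by edgeR over all genes did not pass, against 0.0575% of genes that did within that strain. Without female 1 the edgeR adjusted p was 0.354, with 47.6 ± 4.65 CPM in 3 females.

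Deviations from the strain-by-sex means showed which genes moved together from library to library. Over the 64 libraries, Pvalb and Cck correlated at r = 0.85, Sst and Npy at 0.78, Gad1 and Gad2 at 0.76, Sst and Pvalb at 0.76 and Cck and Lamp5 at 0.69, and Gad2 and Cck at -0.70. Over the 60 libraries without a low length slope, Gad1 and Gad2 were at 0.80, Gad2 and Calb2 at 0.67, Cck and Lamp5 at 0.64, Pvalb and Cck at 0.59 and Sst and Npy at 0.57, whereas Sst and Pvalb were at 0.29. The points share libraries, depth and dissection, and no p is given.

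**Figure D5:**
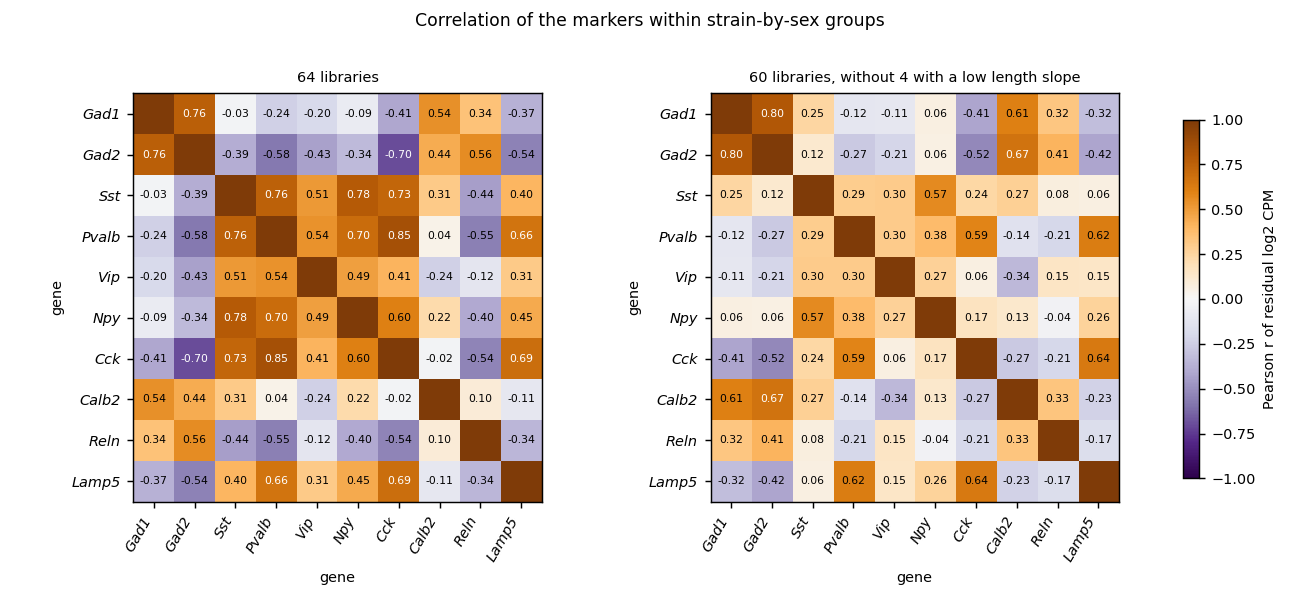
Pearson's r between the residual log2 CPM of each pair of the 10 genes after removal of the 16 strain-by-sex means, over all 64 libraries (left) and over the 60 without a low length slope (right), on a colour scale from -1 (purple) to 1 (brown). Gad1 with Gad2 holds at 0.76 and 0.80, while Sst with Pvalb goes from 0.76 to 0.29.

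The genes most like each one by this residual correlation were searched among 14466 genes with a mean of at least 1 CPM. Gad1 was nearest to Gad2 (r = 0.76), Lzts1 and Gabrg1. Gad2 was nearest to Usp29 (0.90), Cacna2d2 and Plcb4, Calb2 to Magel2 (0.76), Zcchc12 and Ecel1, and Reln to Dync1h1 (0.79), Mtor and Tenm2. Sst was nearest to Gng3 (0.87), Ly6h and Hsbp1, Pvalb to Slc25a4 (0.90), Cox7b and Cox6c, and Cck to Lin7b (0.92), Ppp1ca and Dctn3. Npy was nearest to Sst (0.78), Smim8 and Nubp2, Vip to Rnf227 (0.74), Scrg1 and Atp6v1c1, and Lamp5 to 1110008P14Rik (0.78), Thy1 and Impdh1. Over 60 libraries the first gene was unchanged for Gad1, Pvalb, Cck, Calb2, Reln and Lamp5, and it was Cacna2d2 for Gad2, Ly6h for Sst (0.65), Gm11549 for Vip and Smim8 for Npy (0.57).

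Of 28 further markers of interneuron subtypes, 26 passed the F test over strains and 11 of these spanned at least 1 on the log2 scale, against 89.2% and 27.6% of all genes, with a median span of 0.80 against 0.55 over all genes. Chodl did not pass (edgeR adjusted p 0.0658). Cort, which encodes cortistatin, a peptide related to somatostatin, spanned 2.39, from 4.69 ± 0.970 CPM (SD, n = 8) in C57BL/6J to 0.895 ± 0.238 CPM in PWK/PhJ. Penk, the enkephalin precursor, which other neurons also make, spanned 2.23 and was highest in PWK/PhJ at 83.0 ± 4.58 CPM and lowest in A/J at 17.8 ± 4.52 CPM. Chrna2, the nicotinic receptor subunit of oriens interneurons, spanned 2.22 between CAST/EiJ (2.21 ± 1.59 CPM) and PWK/PhJ (0.471 ± 0.157 CPM).

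Of 17 genes listed as transcription factors of interneuron development, among them Adarb2, which is not one, 16 passed the F test and 4 spanned at least 1, shares near the 89.2% and 27.6% of all genes, with a median span of 0.44 against 0.55. Dlx5 did not pass (edgeR adjusted p 0.0658). Nkx2-1, which specifies interneurons of the medial ganglionic eminence, spanned 1.25 at low levels, from 1.17 ± 0.463 CPM (SD, n = 8) in NZO/HlLtJ to 0.473 ± 0.188 CPM in WSB/EiJ. Sp8 spanned 1.18 between CAST/EiJ and C57BL/6J, Zfhx3 spanned 1.05, and Adarb2, an RNA-binding protein that marks caudal ganglionic eminence interneurons, spanned 1.16 between NOD/ShiLtJ (62.1 ± 7.17 CPM) and C57BL/6J (27.7 ± 3.07 CPM). Of 8 other genes of GABA synthesis, transport and breakdown, 6 passed, against 89.2% of all genes, with a median span of 0.29 against 0.55, and Slc32a1 and Slc38a1 (edgeR adjusted p 0.0539) did not. Slc6a13, a GABA transporter found largely in meninges, alone spanned at least 1 (1.04), followed by Aldh5a1, which breaks down GABA (0.72), and Abat, the GABA transaminase (0.41).

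All 12 tested of 13 receptors of the peptides passed the F test, and 5 spanned at least 1, against 89.2% and 27.6% of all genes, with a median span of 0.83 against 0.55. These were Cckar, Vipr2, Sstr2, Npy2r and Sstr5. Cckar, a cholecystokinin receptor, was near the detection limit, between 0.0503 ± 0.0370 CPM (SD, n = 8) in WSB/EiJ and 0.394 ± 0.278 CPM in PWK/PhJ. Vipr2, a receptor of vasoactive intestinal peptide, spanned 1.54, between 1.29 ± 0.260 CPM in 129S1/SvImJ and 0.439 ± 0.226 CPM in PWK/PhJ. Sstr2, a somatostatin receptor, was highest in CAST/EiJ (24.8 ± 2.34 CPM), where Sst was lowest, and lowest in C57BL/6J (8.74 ± 1.26 CPM), where Sst was highest. That opposition was seen after the values were known and was not tested.

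Of 9 reelin receptors and adaptors, 7 passed the F test and none spanned at least 1, against 89.2% and 27.6% of all genes, with a median span of 0.19 against 0.55, and Vldlr and Fyn did not pass. Itga3 (0.59), Lrp8, a reelin receptor (0.58), and Dab1, its intracellular adaptor (0.46), spanned the most, and Lrp8 ran from 69.8 ± 7.55 CPM in C57BL/6J to 104.5 ± 9.16 CPM in CAST/EiJ (SD, n = 8). All 8 genes of the perineuronal net, the matrix that surrounds many parvalbumin cells, passed, against 89.2% of all genes, with a median span of 0.59 against 0.55. Hapln4, a link protein of that matrix, was highest in WSB/EiJ at 282 ± 14.2 CPM and lowest in A/J at 137 ± 6.97 CPM, followed in span by Hapln1 (0.73) and Tnr (0.66).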

How the data were processed

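Per the labels' protocols, RNA of the 64 hippocampus samples came from TRIzol Plus columns with DNase and was made into Illumina TruSeq libraries. The kit type and the use of strand are not given in the sources used here, so reads of overlapping antisense genes cannot be told apart. The values are raw read counts per gene as the authors deposited them, not normalized, in 1 table whose name gives Ensembl release 105. GRCm39 is the genome build named in the submitters' processing notes. The aligner and counting tool are not given in the sources used here. Columns were matched to samples by name: 50 equalled the start of a sample title and 14 lacked a digit of it. No per-sample column was left unused (0). The labels write most strain names with the sign _ in place of the slash. Title numbers run in blocks by strain and sex, with 639 to 643 in the CAST/EiJ females and 311 to 462 in the others, and what they reflect is not stated. No 2 libraries of a group held identical counts.

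Counts were tested with edgeR 4.0.16 in R 4.3.3: filterByExpr (minimum count 10, minimum total 15), TMM, 1 model of 16 group means, a robust quasi-likelihood fit and Benjamini-Hochberg adjustment over 17382 genes. Tests were the F test over strains, each strain against the other 7, pairs of strains, sex, and the interaction. DESeq2 1.42.0, other filters and scalings, tissue covariates and left-out libraries were alternatives. With 1 library left out, the genes kept and the trend of the dispersions were those of the full fit. The scripts were tested on simulated data. Symbols (32095 of 32227 identifiers, 99.6%), exon lengths and transcript lengths came from GENCODE M21 on GRCm38. Residual levels are log2 CPM (prior count 2) less the 16 group means. The 4 libraries with a slope below -0.15, that limit, the alternatives built on it and the Gad1 to Gad2 ratio were chosen after seeing the data. All 10 genes are named, the 3 nearest genes of each, and up to 3 of each further list by span among those that passed. One gene of a further list is not reported here by name. The members and lists were chosen with earlier results of these data known. Replicate numbers are deposition order and pair no samples.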

Additional observations from a re-analysis of the deposited data

Results flagged for a closer look

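In each group of 4 libraries the highest or lowest library was compared with the other 3 by Dixon's ratio, over 160 combinations of gene and group. A library stood apart in 12 of them, and chance alone gives about 8. Of the 12, 4 fell in the libraries with a low length slope. Cck was 418 CPM in A/J male 2 against 229 to 261 in the other A/J males, and 363 CPM in 129S1/SvImJ female 1 against 211 to 227. Reln was 39.1 CPM in 129S1/SvImJ female 1 against 58.5 to 61.8, and Pvalb was 28.7 CPM in C57BL/6J male 4 against 24.0 to 24.6.

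The other 8 fell in libraries whose length slope was within the range of the rest. Gad2 was 180.1 CPM in NOD/ShiLtJ female 2 against 149 in each of the other 3 females, and Sst was 126 CPM in NOD/ShiLtJ male 3 against 105.5 to 105.8. Pvalb was low in C57BL/6J female 1, at 23.7 CPM against 27.9 to 28.6, and high in NOD/ShiLtJ male 1, at 26.4 CPM against 24.0 to 24.4. In A/J female 4, Pvalb was 32.7 CPM against 23.2 to 24.5 and Vip 17.6 CPM against 13.5 to 14.1. Vip was low in PWK/PhJ female 2, at 14.2 CPM against 17.3 to 17.8, and Lamp5 was high in CAST/EiJ female 1, at 41.4 CPM against 34.2 to 35.4. In NOD/ShiLtJ female 2 the summed choroid plexus markers were the highest of that strain (2998 CPM), and in PWK/PhJ female 2 both these (1870 CPM) and the thalamus and habenula markers (209 CPM) were the highest of theirs. NOD/ShiLtJ male 3 had the highest thalamus and habenula sum of its strain (208 CPM), NOD/ShiLtJ male 1 the highest oligodendrocyte sum of all 64 libraries (6409 CPM) and CAST/EiJ female 1 the highest subiculum and neocortex sum of all 64 (411 CPM). That last sum includes Lamp5 itself, at 41.4 CPM in this library, so its rank is not independent of the flagged Lamp5 value. These sums were picked from many marker lists after the flagged values were seen, and every list has a highest library in each strain. A high rank therefore does not set these libraries apart. No sum is given for C57BL/6J female 1 or A/J female 4. The part of these tissues and cells in the flagged values was not tested.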

How the results depend on the processing

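Alternatives were another normalization (DESeq2 size factors or total counts), DESeq2 as the test, 2 other filters on low counts, a model without interaction, choroid plexus or thalamus and habenula marker covariates, the length slope as a covariate, scaling to Gad1, Gad2 and Slc32a1, and leaving out the CAST/EiJ females, the 4 libraries with a low length slope, or each library in turn. All 10 genes passed the F test in each, except Pvalb with the thalamus and habenula covariate (adjusted p 0.0667), and 1 of 10 also met a span of 1. The 5 called differences became 46 with no fold minimum and 0 with a minimum of 1, and kept their direction throughout. Npy in NOD/ShiLtJ was under the minimum at -0.48, -0.49 and -0.499 with the thalamus and habenula covariate, the scaling to GABA genes and the length slope, and Cck in CAST/EiJ at -0.499 with that scaling. The cause was not tested. Between 5 and 6 differences were called with 1 library left out: Sst in C57BL/6J was added at 0.50 and 0.52 without C57BL/6J female 1 or male 2, and Npy in A/J at -0.50 without A/J male 2. Leaving out 1 library put the span of Npy between 0.97 and 1.05 and that of Vip between 0.94 and 1.04, so either can fall on each side of 1. The count of neighbouring strains that differed was 9 with edgeR and 10 with DESeq2, of 70. It was 14 without the 4 libraries, which kept all 9, and 18 with the length slope as a covariate, which kept 7 of the 9 (not Gad2 in PWK/PhJ against NZO/HlLtJ, nor Vip in WSB/EiJ against PWK/PhJ). Pairs differing in the Gad1 to Gad2 ratio numbered 14 to 19 with 1 library left out and 18 without the 4. Sex and interaction calls were 0 under each alternative and with each library left out.

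No paired analysis was possible because replicate numbers were given in deposition order and match no samples between groups. The 10 genes held at least 204 reads in every library, and counting error was not separated from the rest of the spread between libraries.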
